A study of Mus musculus with 19 samples.

Results

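Chromatin accessibility after 72 h of astrocytic differentiation was set against that of the undifferentiated cells. Neural stem and progenitor cells of the mouse were the material, isolated from the ventricular zone of wild type C57BL/6J embryos at embryonic day 14, 1 brain per culture, and grown as floating neurospheres (NSPs). The NSP group (3 libraries) was kept in medium with EGF at 20 ng/ml, the growth factor that holds these cells in division. The 72 h group (3 libraries) had spent 72 h on coated plates in medium with 10% serum and no EGF. Neither group received tumor necrosis factor. The labels do not say which cultures came from the same brain, and p-values therefore measure the spread between libraries only. These 6 of the 19 libraries of the series were compared at 88688 of the 90154 peaks in the table. ATAC-seq, the assay used, cuts open DNA with a transposase, so that accessible regions collect more reads, and each value here is a normalised read count of 1 peak in 1 library. The peaks left out are the 1235 whose reads were too low to test and a further 231 that had 3 reads or fewer in all 10 libraries of 72 h, 72 h with tumor necrosis factor and 1 week.

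Neural progenitors of the embryonic forebrain first make neurons and then glia. Notch signalling keeps them undifferentiated. The ligands Dll1 and Jag1 on one cell activate Notch receptors on its neighbour, and the receptor, through its DNA-binding partner Rbpj, switches on the repressors Hes1, Hes5 and Hey1. EGF acts through the ERK kinases, whose activity induces its own inhibitors, the Sprouty and Dusp proteins. Serum carries BMP and TGF-beta family ligands and lysophospholipids, which act through Smad proteins and through the actin-linked coactivators of SRF and TEAD. Accessibility at a gene's start reports that the promoter is open, not how much RNA is made.

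The stretches before 6 gene starts show a feature by which start peaks that rose and fell differed, the density of CpG dinucleotides. They were chosen after the values were seen, from the genes whose start peaks the results turn on. Hes5, Ccnb1 and Olig2 had start peaks that were lower at 72 h, and Gfap, C3 and Gja1 had start peaks that were higher. Each line gives the 250 bases before the RefSeq start (GRCm38.p6), on the strand of the gene, with every CG in capitals.
Hes5: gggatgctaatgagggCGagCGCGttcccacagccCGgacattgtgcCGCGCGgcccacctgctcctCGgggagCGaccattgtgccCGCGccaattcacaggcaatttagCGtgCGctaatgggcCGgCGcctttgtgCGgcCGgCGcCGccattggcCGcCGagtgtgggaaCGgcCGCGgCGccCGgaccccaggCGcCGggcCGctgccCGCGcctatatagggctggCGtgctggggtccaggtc
Ccnb1: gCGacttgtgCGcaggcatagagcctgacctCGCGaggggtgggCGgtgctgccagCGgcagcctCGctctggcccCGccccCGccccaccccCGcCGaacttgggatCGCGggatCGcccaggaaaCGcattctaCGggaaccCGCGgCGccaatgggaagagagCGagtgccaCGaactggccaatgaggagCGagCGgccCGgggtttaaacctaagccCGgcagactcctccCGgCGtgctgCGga
Olig2: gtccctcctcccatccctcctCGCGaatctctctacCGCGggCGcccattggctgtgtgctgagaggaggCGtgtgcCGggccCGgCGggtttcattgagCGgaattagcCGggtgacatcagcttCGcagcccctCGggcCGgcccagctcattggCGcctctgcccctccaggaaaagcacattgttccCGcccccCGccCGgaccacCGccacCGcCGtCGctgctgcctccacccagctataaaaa
Gfap: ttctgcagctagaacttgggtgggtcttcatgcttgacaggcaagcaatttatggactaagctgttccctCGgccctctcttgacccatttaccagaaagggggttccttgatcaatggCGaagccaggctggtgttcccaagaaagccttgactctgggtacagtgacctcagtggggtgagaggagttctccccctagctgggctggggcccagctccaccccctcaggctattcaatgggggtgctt
C3: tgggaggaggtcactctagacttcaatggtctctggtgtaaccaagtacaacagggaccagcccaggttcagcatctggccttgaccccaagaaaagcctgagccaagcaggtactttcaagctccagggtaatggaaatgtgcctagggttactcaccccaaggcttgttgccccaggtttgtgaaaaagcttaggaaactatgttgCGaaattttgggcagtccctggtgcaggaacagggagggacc
Gja1: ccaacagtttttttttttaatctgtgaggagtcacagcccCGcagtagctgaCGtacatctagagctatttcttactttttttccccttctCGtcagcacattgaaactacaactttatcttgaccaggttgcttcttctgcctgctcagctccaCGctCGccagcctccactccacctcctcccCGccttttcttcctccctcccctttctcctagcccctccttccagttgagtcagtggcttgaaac

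The Hes5 stretch (chr4:154960673-154960922, plus strand) held 32 CG, that of Ccnb1 (chr13, minus strand) 28 and that of Olig2 (chr16, plus strand) 22. The Gfap stretch (chr11:102897201-102897450, minus strand) held 2, that of C3 (chr17, minus strand) 1 and that of Gja1 (chr10, plus strand) 6. The lower genes were not all so dense, since the stretch before Dll3, which encodes a Notch ligand, held 10. The Hes5 stretch also held 2 matches, counted on either strand, to TGGGAA, the core letters that Rbpj binds. Those of Ccnb1 and Gfap held 1 each, and those of Dll3, Olig2, C3 and Gja1 held 0. The Gja1 stretch held 1 match to the AP-1 motif TGANTCA, likewise on either strand. Those of Hes5, Ccnb1, Olig2, Gfap, C3 and Dll3 held 0. The Rbpj letters stood in these 250 bases before 20.2% of all start peaks with a listed promoter and before 21.6% of all listed promoters. They stood before 18.27% of the starts called lower at 72 h and 25.45% of those called higher.

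The NSP libraries held 28636739 to 39349111 reads in peaks and those of 72 h 12239620 to 13137103, so depth moved with the stage. NSP replicate 1 stood apart, with a Spearman correlation across peaks of 0.923 and 0.913 to the other NSP libraries against 0.982 between those, and without it 25726 peaks were called higher and 27957 lower. The names of the 72 h and 1 week libraries carry a tag that those of the NSP and 24 h libraries lack, and in the comparison with NSPs the effects of stage and tag cannot be told apart. Of the 231 peaks left out for their low reads in tagged libraries, 226 would have been called lower and 0 higher. The table had 212 peaks with 3 reads or fewer in each tagged library and 20 or more in each untagged one, and 70 of the left-out peaks lay on chromosome 19. In the other direction 4 peaks followed the tag, all on patch scaffolds of the assembly, and remain among the peaks counted. The 5 peaks just outside the limit, with up to 3 reads in a tagged library, had log2 changes between -7.93 and -0.10, and the 5 just inside, with up to 5 to 7, between -5.05 and -0.65.

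Accessibility changed widely between the stages, in both directions. At 72 h 25196 peaks (28.4% of those tested) had gained accessibility over NSPs and 27283 (30.8%) had lost it, by limma-trend with a Benjamini-Hochberg adjusted p under 0.05. The split depended on how libraries were scaled: scaling by total reads in peaks gave 32636 higher and 18283 lower, a share of higher calls of 64.1% in place of 48.0%, and shifted the median log2 change over the whole set from -0.06 to 0.21. Log2 changes below are those of the deposited scaling, and for 72 h against NSPs the total reads scaling adds about that shift to each. The shift differs in the other comparisons. Total reads scaling moved the median of 72 h against 24 h from -0.01 to 0.07, and that of 1 week against 72 h from 0.02 to -0.32. Among the peaks compared, a change of at least 4-fold was seen at 6939 higher and 2328 lower peaks, and one of at least 16-fold at 515 higher and 9 lower peaks. The read limit bears on this count, because it removes peaks that were nearly empty at 72 h and not those nearly empty in NSPs. Of the left-out peaks 225 were lower by at least 4-fold and 208 by at least 16-fold, and with them kept there were 2553 lower peaks of at least 4-fold and 217 of at least 16-fold. When peaks with 3 reads or fewer in all untagged libraries were left out as well, 6924 higher peaks reached 4-fold and 508 reached 16-fold. The 3 libraries of 72 h lay entirely above or below the 3 of NSPs at 23199 of the peaks called higher and 24967 of those called lower. Called or not, they lay above at 25797 and below at 28380 of the 88688 peaks. The calls rest on the same values, so these counts are no separate evidence.

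Peaks at gene starts moved mostly one way. Of 13437 peaks whose centre lay within 1 kb of a protein-coding start, 7608 (56.6%) were lower at 72 h and 1020 (7.59%) were higher, with a median log2 change of -0.41. Where a gene had no listed start, either of its ends was taken as one. Beyond 1 kb the balance was the reverse, with 32.1% higher, 26.2% lower and a median of 0.06. From 1 to 10 kb 32.0% were higher and 25.1% lower, and over 100 kb from the nearest start 32.0% and 29.4%. Losses at starts were small, since 1323 of the 7608 reached 2-fold, whereas 394 of the 1020 gains did. The share of reads in peaks that fell at starts was 41.0% to 44.6% in the NSP libraries and 35.5% to 37.6% at 72 h, without overlap, and its part in the counts at starts was not tested. Scaled by total reads, 35.0% of start peaks were lower and 15.3% higher, and with loess offsets, which level peaks of like height, 38.6% and 14.0%, so that losses outnumbered gains at starts under each scaling.

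**Figure D1:**
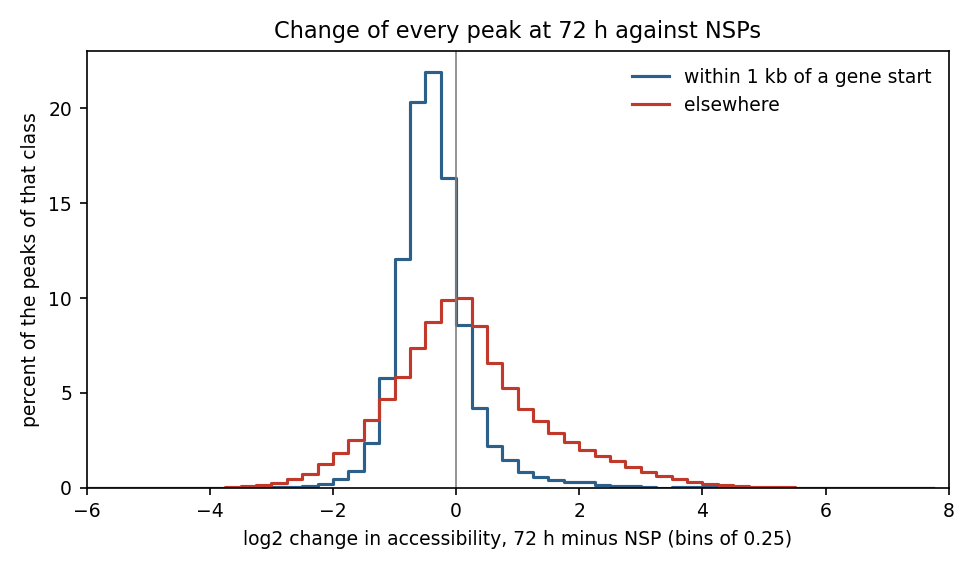
Log2 change in accessibility at 72 h against NSPs (x axis, bins of 0.25) of the peaks within 1 kb of a gene start (blue) and of all others (red), as a percent of the peaks of each class (y axis). The start peaks form a narrow peak left of 0 with a median of -0.41, and the other peaks spread widely to both sides, with the longer tail on the right. 1 peak beyond 8 is not drawn.

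Start peaks differed by the sequence before the start. For 9798 start peaks a RefSeq promoter of the same gene lay at the peak. The CpG ratio, the number of CG found over the number that the C and G content alone would give, had a median of 0.79 before starts called lower, 0.67 before those not called and 0.40 before those called higher. Between the lowest and the highest of 5 equal classes of the CpG ratio, the share called lower went from 38.2% to 72.1% and the share called higher from 16.9% to 0.918%. The GC box GGGCGG, the letters bound by Sp1, searched on either strand like the other motifs, stood before 69.8% of the starts called lower and 41.1% of those called higher, against 61.9% of all these start peaks and 32.7% of all listed promoters. The letters TGANTCA of the AP-1 motif stood before 2.89% and 9.82%, against 3.95% of all these start peaks and 6.75% of all 32851 listed promoters. The TATA letters TATAAA stood before 4.73% and 10.5%, against 6.03% of all these start peaks and 12.4% of all listed promoters. The median level also differed between these classes, from 208 normalised reads in the lowest to 539 in the highest, and its part was not tested.

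**Figure D2:**
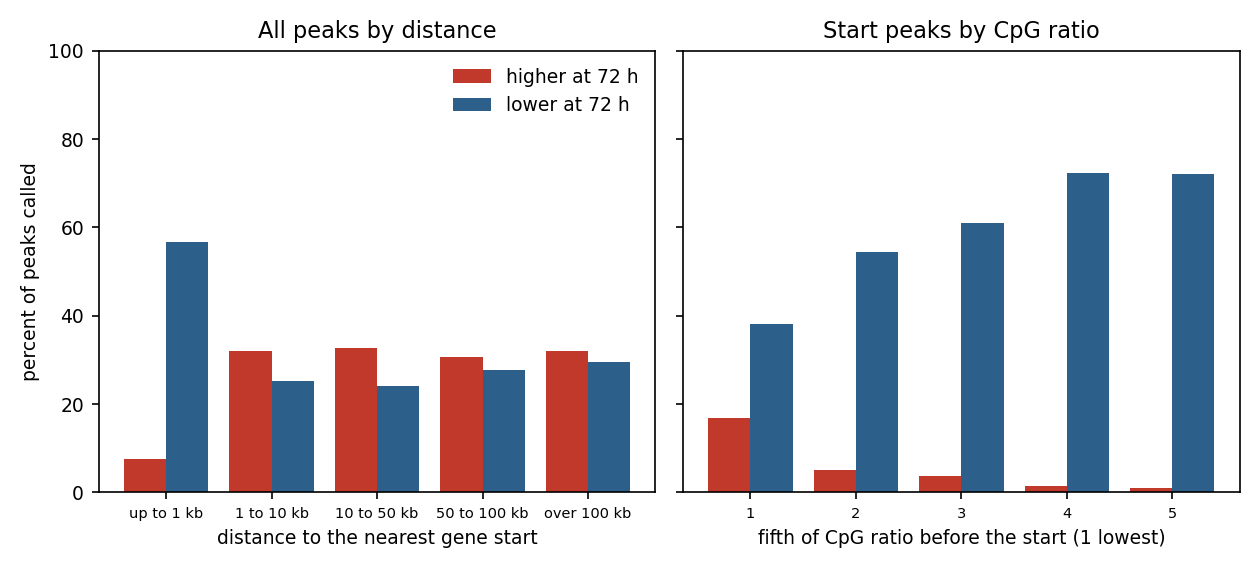
Percent of peaks called higher (red) and lower (blue) at 72 h against NSPs (y axis), for all peaks by distance to the nearest gene start (left) and for start peaks by class of the CpG ratio, 5 classes of equal size, in the 250 bases before the start (right). Only the peaks up to 1 kb from a start lean strongly to lower, and among these the share called lower was 38.2% in the lowest class and 72.1% in the last.

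Notch pathway genes were lower without exception at their starts. All 12 genes of the list had a start peak, and all 12 were called lower, with a median log2 change of -1.01, against 56.6% of all start peaks and their median of -0.41. The largest loss was at Hes5, the repressor that Notch induces in dividing progenitors. Its start peak (chr4:154960534-154961034, 139 bases from the start) held 2209, 1809 and 1910 in the NSP libraries and 176, 221 and 195 at 72 h. Every 72 h library was far below every NSP library, the means differed by 10.0-fold, and the log2 change was -3.32 ± 0.16 (SE, adjusted p = 1.61e-16). The ligand gene Dll1 had 1587, 862 and 975 in the NSP libraries and 384, 364 and 377 at 72 h, where NSP replicate 1 was above the other two and the 72 h libraries were close to each other, a change of -1.55 ± 0.16 (SE, adjusted p = 1.59e-09). For Dll3, a ligand gene that acts within the cell and was chosen after its values were seen, the values were 278, 245 and 278 in the NSP libraries and 92.7, 82.5 and 77.8 at 72 h, a change of -1.65 ± 0.20 (SE, adjusted p = 5.84e-08). The receptor genes changed less, by -0.61 at Notch1, -0.61 at Notch2 and -1.06 at Notch3. Hey1 and Hes1, further repressors, changed by -1.20 and -0.95, and Rbpj, the DNA-binding partner, by -0.60. Rbpj was the only one of the 12 that was no longer called with loess offsets (adjusted p = 0.053). Over all 127 peaks assigned to these genes, within the gene or nearest to it, 61 (48.0%) were lower and 25 (19.7%) higher, beside 30.8% and 28.4% of all peaks.

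The other genes of undifferentiated cells also lost accessibility, with exceptions. Of 15 start peaks of progenitor genes 12 were lower and 3 higher, and the median change was -0.95. All start peaks were 56.6% lower and 7.59% higher, with a median of -0.41. With total reads scaling 9 of the 15 were lower and 3 higher, and with loess offsets likewise 9 and 3. Egr1, a growth factor induced transcription factor, had 2313, 2208 and 2181 in the NSP libraries and 1129, 1169 and 1059 at 72 h, with all 72 h libraries below all NSP libraries (adjusted p = 1.54e-09). Gli3, a repressor in Hedgehog signalling, changed by -1.21. Sox1 and Sox2, which mark neural progenitors, changed by -0.86 and -0.44, the latter near the median of all start peaks. Those that were higher included Prom1, which encodes the surface protein CD133, with 166, 165 and 155 in the NSP libraries and 308, 312 and 345 at 72 h and a change of 0.99 (adjusted p = 3.03e-07), and Msi1, an RNA-binding protein gene, at 0.77 (adjusted p = 0.00215).

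Cell cycle genes lost accessibility too. Of 19 start peaks of the proliferation list 17 were lower, 0 were higher and 2 were not called, with a median of -0.77. Among all start peaks 56.6% were lower, with a median of -0.41. Ccnd1, the cyclin that growth factors induce in G1, had 372, 446 and 504 in the NSP libraries and 122, 98.1 and 134 at 72 h, with no overlap and a change of -1.89 ± 0.17 (SE, adjusted p = 1.59e-10). Mki67, the gene of the Ki-67 antigen of dividing cells, had 784, 625 and 704 in the NSP libraries and 309, 331 and 269 at 72 h, a change of -1.21 ± 0.12 (SE, adjusted p = 1.64e-09). Ccnb1, the mitotic cyclin, had 839, 851 and 806 in the NSP libraries and 446, 396 and 423 at 72 h, a change of -0.98 ± 0.11 (SE, adjusted p = 5.28e-09). The peaks not called were those of Top2a at 0.10 (adjusted p = 0.603) and Mcm3 at -0.25 (adjusted p = 0.0559). With total reads scaling 13 were lower and 1 was higher.

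All 13 start peaks of the EGF and ERK feedback list were lower, with a median of -0.74, beside 56.6% lower and a median of -0.41 for all start peaks. Spry2, a Sprouty inhibitor of receptor signalling, had 2458, 1816 and 2026 in the NSP libraries and 691, 818 and 718 at 72 h, a change of -1.49 ± 0.12 (SE, adjusted p = 1.04e-11). Dusp6, the phosphatase that inactivates ERK, had 1771, 2017 and 2328 in the NSP libraries and 872, 929 and 944 at 72 h, a change of -1.15 ± 0.11 (SE, adjusted p = 7.02e-10). Etv1, an ETS factor downstream of ERK, changed by -1.20 (adjusted p = 9.93e-08) and Egfr, the EGF receptor, by -0.50 (adjusted p = 2.68e-04). At each of the 13 genes every 72 h library lay below every NSP library, as at 28380 of all 88688 peaks. That count includes peaks beyond 1 kb of a start, of which 26.2% were called lower. The share among start peaks alone was not counted and may be larger. The immediate early genes of the AP-1 factors, which ERK also drives, had 6 of 9 start peaks lower and 0 higher, close to the share of all start peaks. Jun had 3439, 2289 and 2473 in the NSP libraries and 1083, 1323 and 1538 at 72 h, a change of -1.05 ± 0.14 (SE, adjusted p = 2.39e-07), and Fos and Fosl2 changed by -0.97 and -0.68.

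**Figure D3:**
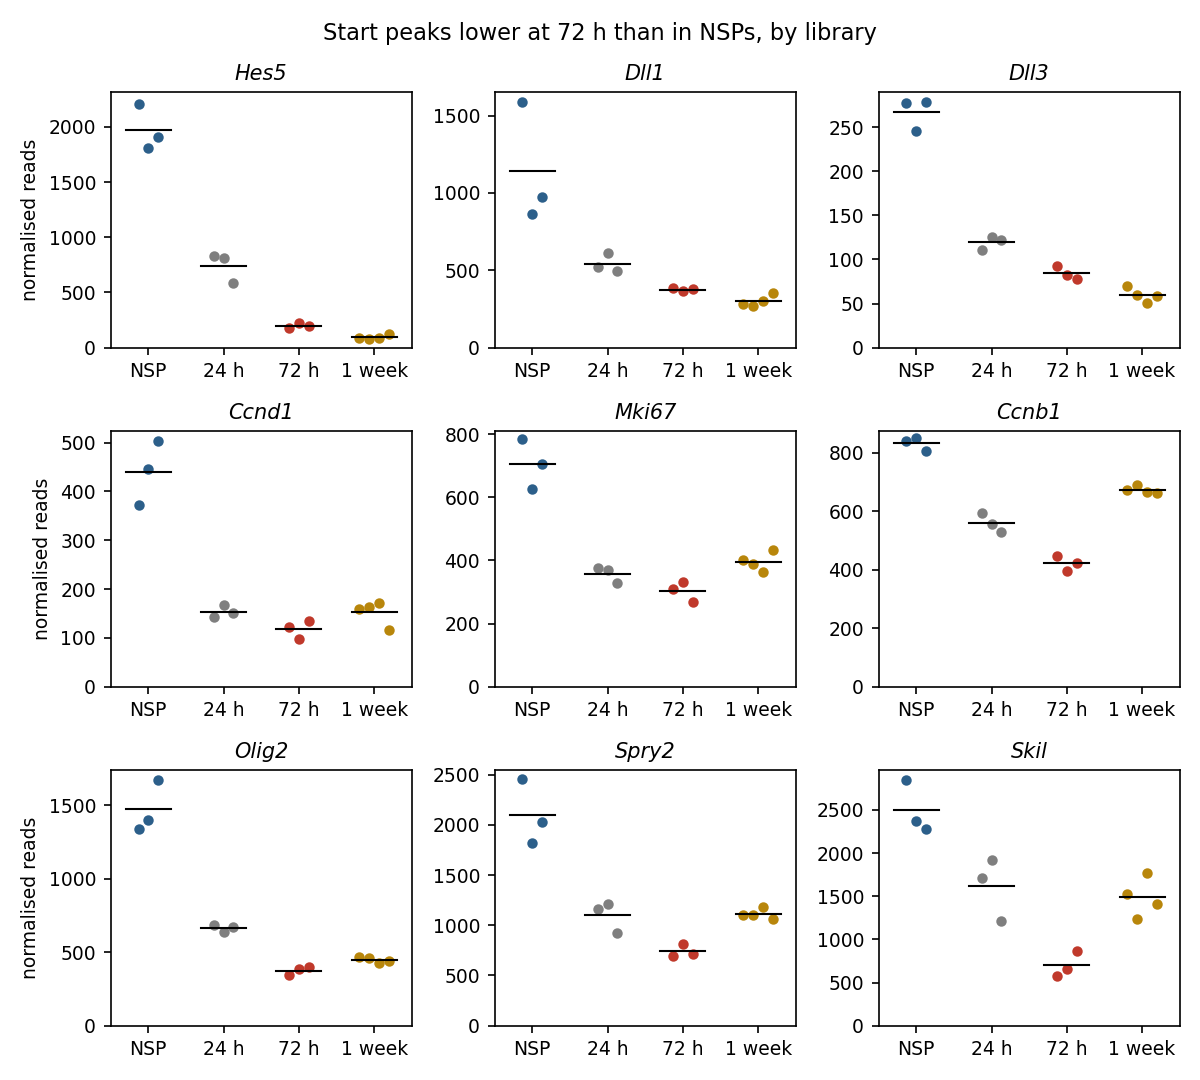
Normalised reads (y axis, from 0) in the start peaks of 9 genes in each library of NSPs (blue), 24 h (grey), 72 h (red) and 1 week (ochre), with a black bar at each group's mean. All 3 libraries of 72 h lie below all 3 of NSPs in every panel. Hes5 is lower still at 1 week, whereas Ccnb1, Spry2 and Skil lie higher at 1 week than at 72 h.

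Some genes of other neural lineages were lower. Of the neuronal lineage list, 11 of 16 start peaks were lower and 0 higher, with a median of -0.71, beside 56.6% lower and a median of -0.41 for all start peaks. With total reads scaling 7 were lower and 1 higher, and without NSP replicate 1 8 were lower. Eomes, which marks intermediate neuronal progenitors, had 174, 164 and 147 in the NSP libraries and 52.8, 58.6 and 45.9 at 72 h, a change of -1.61 ± 0.19 (SE, adjusted p = 2.97e-08). Dlx1, of interneuron precursors, and Elavl4, a neuronal RNA-binding protein gene, changed by -0.74 and -0.81. Tubb3, the neuronal tubulin gene, was not called, at 0.08 (adjusted p = 0.626). In the oligodendrocyte list 3 of 6 start peaks were lower, no more than start peaks in general, and with total reads scaling 2 were lower and 1 higher. Olig2, a factor of oligodendrocyte precursors that embryonic progenitors also express, had 1339, 1402 and 1673 in the NSP libraries and 342, 384 and 398 at 72 h, a change of -1.97 ± 0.11 (SE, adjusted p = 1.14e-14), and its neighbour Olig1 had 1202, 1215 and 1453 in the NSP libraries and 530.2, 495 and 509.8 at 72 h, a change of -1.33 ± 0.11 (SE, adjusted p = 1.86e-11). Myrf changed by -0.38 (adjusted p = 0.0106) and was not called with total reads scaling (adjusted p = 0.475) or loess offsets (adjusted p = 0.0746). In cultures of mixed cells, fewer cells of a kind and less accessibility per cell cannot be told apart.

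Astrocyte genes split. Of 17 start peaks of the list 4 (23.5%) were higher, 7 (41.2%) lower and 6 not called, with a median of -0.23. Among all start peaks 7.59% were higher and 56.6% lower, with a median of -0.41. Gfap, the intermediate filament gene that marks astrocytes, had 186, 75.8 and 61.1 in the NSP libraries and 542, 493 and 552 at 72 h at chr11:102897110-102897610, 160 bases from the start. NSP replicate 1 was above the other NSP libraries but far below every 72 h library, the means differed by 4.92-fold, and the log2 change was 2.46 ± 0.22 (SE, adjusted p = 1.27e-10). Gja1, which encodes the gap junction protein connexin 43, had 129, 78.7 and 67.8 in the NSP libraries and 237, 245 and 172 at 72 h, a change of 1.28 ± 0.20 (SE, adjusted p = 3.98e-06). Gpld1, a phospholipase gene that the study follows as astrocyte-enriched, had 150.1, 137 and 137 in the NSP libraries and 368, 379 and 362 at 72 h, a change of 1.38 ± 0.14 (SE, adjusted p = 1.37e-09). Mlc1, a membrane protein of astrocyte end feet, changed by 0.49 (adjusted p = 0.00166), with NSP replicate 1 inside the range of 72 h. The lower ones included S100b, a calcium-binding protein gene of glia, with 438, 579.9 and 668 in the NSP libraries and 256, 294 and 294 at 72 h and a change of -0.98 (adjusted p = 1.73e-06), Glul, the glutamine synthetase gene, at -0.77 (adjusted p = 7.23e-07), and Fgfr3 at -0.69 (adjusted p = 5.48e-05). Aldh1l1, the folate enzyme gene used as an astrocyte marker, had 142, 67.4 and 58.5 in the NSP libraries and 64.3, 20.3 and 35.7 at 72 h, with overlap between the stages and a change of -1.17 (adjusted p = 0.0073). Slc1a3, the gene of the glutamate transporter GLAST, which radial glia share, was not called, at 0.10 (adjusted p = 0.588). Aqp4, Slc1a2, Gjb6 and Slc14a1 had no start peak, and the start peak of Clcf1 was among those left out, with 1 read in each 72 h library. Over all 157 peaks assigned to astrocyte genes 57 (36.3%) were higher and 41 (26.1%) lower, beside 28.4% and 30.8% of all peaks. The Gja1 locus held 12 higher and 2 lower of 23.

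The gliogenic factors, which set up glial fate, resembled start peaks in general. In that list 0 of 10 start peaks were higher and 6 were lower, near the 56.6% of all start peaks. Nfib, a nuclear factor I gene of glial differentiation, had 1367, 773 and 787 in the NSP libraries and 223, 315 and 356 at 72 h, a change of -1.68 ± 0.18 (SE, adjusted p = 6.04e-09), and NSP replicate 1 was above the other two. Sox8 changed by -0.92 (adjusted p = 2.89e-07), while Sox9, its relative in glial specification, was at -0.21 (adjusted p = 0.203) and Nfia at 0.23 (adjusted p = 0.368). With loess offsets the list had 2 higher and 2 lower, with total reads 1 and 3, and without NSP replicate 1 it had 1 and 4. Over all 305 peaks assigned to the list 94 (30.8%) were higher and 92 (30.2%) lower, near the 28.4% and 30.8% of all peaks. Among these loci Sox9 had 18 higher and 4 lower of 37 assigned peaks. Nfia had 19 higher and 25 lower of 78, and Nfib 13 and 21 of 49.

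Genes of reactive astrocytes were higher more often than start peaks in general. Of 13 start peaks 5 were higher and 2 lower, with a median of 0.27, against 7.59% of start peaks higher. The levels were low. C3, the complement component, had 9.93, 3.77 and 7.31 in the NSP libraries and 45, 49 and 48.4 at 72 h, all 72 h libraries above all NSP libraries, and changed by 2.68 ± 0.36 (SE, adjusted p = 2.31e-07). Lcn2, an iron-carrier protein gene of the acute phase, had 13.4, 7.54 and 3.32 in the NSP libraries and 27, 33.5 and 38.2 at 72 h, a change of 2.05 ± 0.42 (SE, adjusted p = 1.25e-04). Osmr, the oncostatin M receptor gene, Steap4, a metalloreductase gene, and Cxcl10, a chemokine gene, changed by 0.69 (adjusted p = 0.00212), 0.94 (adjusted p = 0.00639) and 0.51 (adjusted p = 0.0482), and at Cxcl10 the libraries overlapped. Vim, the vimentin gene, had 1208, 1010 and 1023 in the NSP libraries and 627, 787 and 776 at 72 h and changed by -0.57 (adjusted p = 5.63e-05). Cd44, a surface protein gene, changed by -0.35 (adjusted p = 0.0393), with overlapping libraries, and was not called by edgeR (adjusted p = 0.0888), DESeq2 (adjusted p = 0.0634), with total reads scaling (adjusted p = 0.646) or without any 1 of 72 h replicates 1 and 2 and NSP replicates 2 and 3 (adjusted p from 0.0628 to 0.253).

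A few genes of the contractile response to serum gained strongly at their starts. In the contractile list, of genes that SRF drives, 3 of 13 start peaks were higher and 4 lower, with a median of 0.09. Total reads scaling gave 6 higher and 3 lower, and loess offsets 6 and 2. Of all start peaks 7.59% were higher and 56.6% lower. These shares were 15.3% and 35% with total reads scaling and 14% and 38.6% with loess offsets. Lmod1, an actin nucleator gene of smooth muscle, had 63.1, 46.6 and 47.8 in the NSP libraries and 219, 251 and 234 at 72 h, a change of 2.15 ± 0.17 (SE, adjusted p = 4.94e-12). Acta2, the smooth muscle actin gene, had 26.9, 60.3 and 53.8 in the NSP libraries and 148, 138 and 169.5 at 72 h, a change of 1.74 ± 0.21 (SE, adjusted p = 3.42e-08). Tagln had 11.1, 16.5 and 24.6 in the NSP libraries and 41.2, 21.5 and 34.4 at 72 h, overlapping between stages, and its change of 0.88 (adjusted p = 0.0445) was not called without any 1 of NSP replicates 1 and 2 and 72 h replicates 1 and 3 (adjusted p from 0.0773 to 0.173). Srf itself was lower, with 1828, 1660 and 1505 in the NSP libraries and 972, 1053 and 1004 at 72 h and a change of -0.72 ± 0.10 (SE, adjusted p = 5.63e-07), as were Vcl, the vinculin gene, at -0.64 and Flna at -0.61. With loess offsets the change at Vcl was -0.12 and was not called (adjusted p = 0.0999).

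The YAP and TEAD list, of the transcription partners that respond to cell spreading and serum, had 4 higher and 4 lower of 13, with a median of 0.15. The counts depended on scaling, with 8 higher and 1 lower with total reads and 7 and 2 with loess offsets, and 6 and 2 without NSP replicate 1. For all start peaks 7.59% were higher and 56.6% lower. With total reads these shares were 15.3% and 35%, with loess offsets 14% and 38.6%, and 8.54% and 53% without NSP replicate 1. Ccn2, a well known target gene, had 68.3, 43.8 and 50.5 in the NSP libraries and 405, 339.7 and 416 at 72 h at chr10:24595190-24595690, 2 bases from the start, a change of 2.83 ± 0.17 (SE, adjusted p = 1.37e-14). Tead4, of the DNA-binding partners, had 139, 142 and 107 in the NSP libraries and 359, 331 and 369.6 at 72 h, a change of 1.45 ± 0.13 (SE, adjusted p = 1.42e-10), while Tead2 had 289, 276 and 244 in the NSP libraries and 102, 127 and 128 at 72 h, a change of -1.18 ± 0.16 (SE, adjusted p = 2.30e-07). Tead1 changed by -0.64 (adjusted p = 0.00362) and was not called with total reads scaling (adjusted p = 0.0733). Yap1 changed by -0.44 (adjusted p = 0.00739) and was not called with that scaling (adjusted p = 0.256), with loess offsets (adjusted p = 0.227) or without NSP replicate 1 (adjusted p = 0.0551). Nuak2, a target kinase gene, changed by 0.60 (adjusted p = 3.12e-04).

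Matrix and adhesion genes had 1 of 10 start peaks higher and 5 lower, a share near that of all start peaks. The 5 include a peak at the higher-coordinate end of Col1a1, which may not be its start. Sparc, a matrix glycoprotein gene, had 347, 283 and 294 in the NSP libraries and 428, 407 and 505 at 72 h, a change of 0.53 ± 0.13 (SE, adjusted p = 9.56e-04). The shared start of Col4a1 and Col4a2, of basement membrane collagen, had 267, 254 and 247 in the NSP libraries and 135, 119.6 and 130.0 at 72 h, a change of -0.99 ± 0.16 (SE, adjusted p = 4.62e-06), and Itgb1, the integrin subunit gene, changed by -0.83 (adjusted p = 1.52e-07). Of all 175 peaks assigned to matrix genes 65 (37.1%) were higher and 38 (21.7%) lower, beside the same shares of all peaks, 28.4% and 30.8%.

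**Figure D4:**
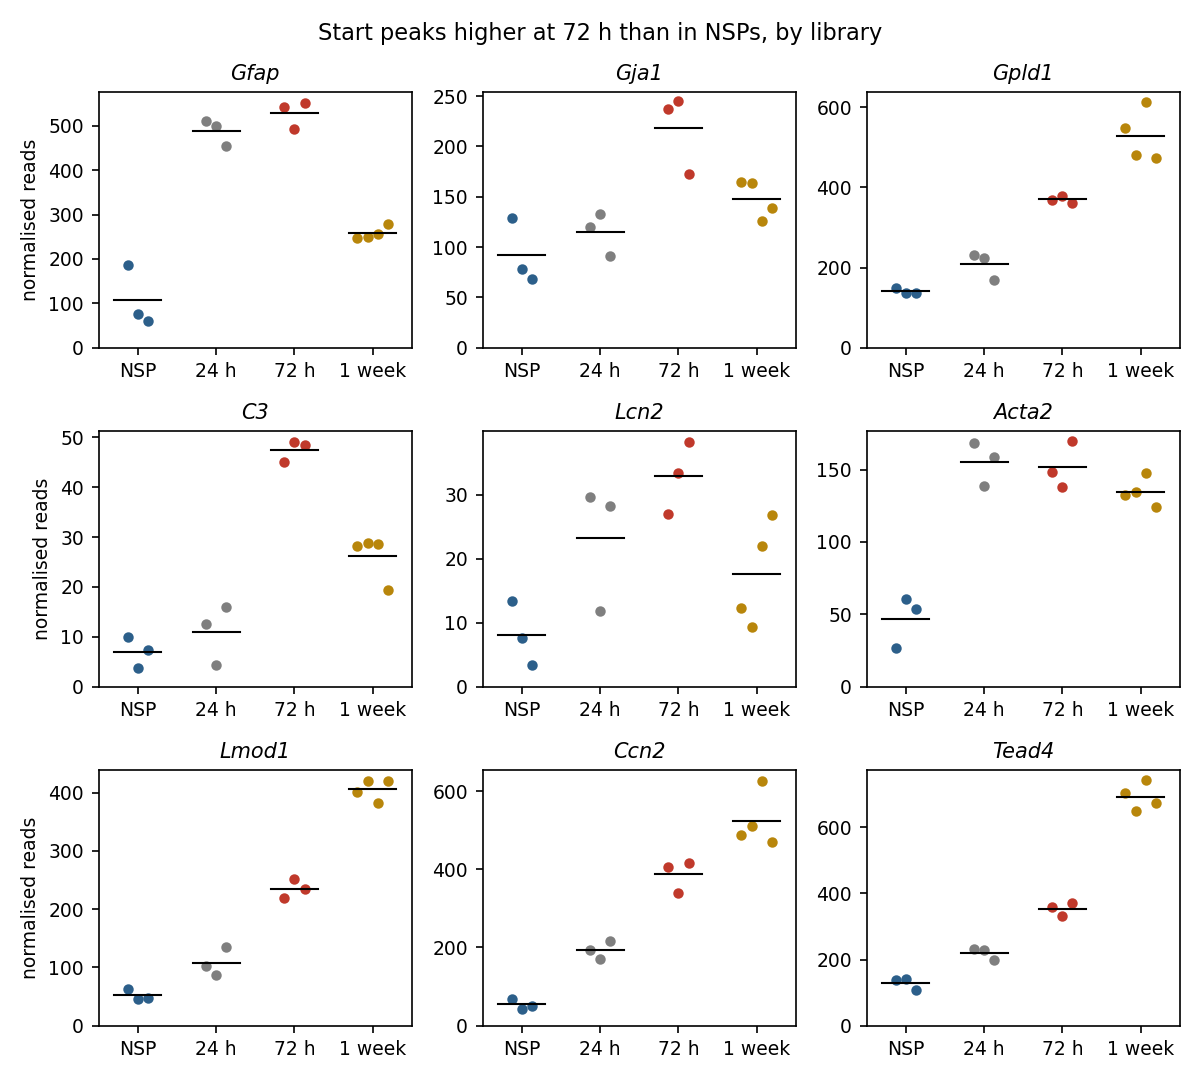
Normalised reads (y axis, from 0) in the start peaks of 9 genes in each library of NSPs (blue), 24 h (grey), 72 h (red) and 1 week (ochre), with a black bar at each group's mean. All 3 libraries of 72 h lie above all 3 of NSPs in every panel. Gfap, Gja1 and C3 are lower at 1 week than at 72 h, and Lmod1, Tead4 and Gpld1 are higher at 1 week.

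Genes of the TGF-beta and BMP pathway had 8 of 14 start peaks lower and 2 higher, where 56.6% of all start peaks were lower and 7.59% higher. Skil, a repressor of Smad signalling, had 2848, 2370 and 2281 in the NSP libraries and 570.0, 657 and 871 at 72 h, a change of -1.85 ± 0.16 (SE, adjusted p = 3.20e-11). The receptor genes Tgfbr1 and Bmpr1a changed by -1.06 and -1.20. Smad6, the inhibitory Smad that BMP induces, was higher, with 474, 393 and 319 in the NSP libraries and 749, 787 and 909 at 72 h and a change of 1.05 ± 0.13 (SE, adjusted p = 4.63e-08). Id1, a direct BMP target gene, had 333, 426 and 427 in the NSP libraries and 587, 593 and 591 at 72 h, a change of 0.59 ± 0.12 (SE, adjusted p = 1.23e-04). Over all assigned peaks of the pathway 85 of 207 (41.1%) were higher and 45 (21.7%) lower, beside 28.4% and 30.8% of all peaks. Of these, 26 of the 29 peaks assigned to Smad6 were higher and 0 lower, with log2 changes from 0.29 to 4.06 over a gene of 69.0 kb. With loess offsets 4 start peaks of the list were higher and 5 lower, with total reads 3 and 4, and without NSP replicate 1 3 and 6.

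Retinoid genes had 2 higher and 2 lower of 6 start peaks, where 7.59% of all start peaks were higher and 56.6% lower. Aldh1a1, which makes retinoic acid, had 179, 102 and 98.3 in the NSP libraries and 333, 331 and 261 at 72 h, a change of 1.33 ± 0.18 (SE, adjusted p = 2.97e-07). Rarb, a receptor gene that retinoic acid induces, had 216, 214 and 229 in the NSP libraries and 256, 355 and 354 at 72 h and a change of 0.53 ± 0.15 (SE, adjusted p = 0.00343). Rara changed by -0.45 (adjusted p = 0.00155) and Rxrb by -0.35 (adjusted p = 0.0196), and neither was called with loess offsets (adjusted p = 0.0592 and 0.992) or total reads scaling (adjusted p = 0.155 and 0.536). Without NSP replicate 1 the change at Rxrb was -0.15 (adjusted p = 0.243). Rarg was at 0.28 (adjusted p = 0.178) and was called higher only with total reads scaling (adjusted p = 0.0134). In the lipid transport list 1 of 12 start peaks was higher and 6 lower, near the shares of all start peaks. Srebf1, a regulator of lipid synthesis, changed by 0.45 (adjusted p = 0.0111), a call lost without 72 h replicate 2 (adjusted p = 0.0718) or NSP replicate 3 (adjusted p = 0.0599). Fabp7, the fatty acid carrier gene of radial glia, had 808, 715 and 783 in the NSP libraries and 369, 404 and 419 at 72 h, a change of -0.95 (adjusted p = 2.88e-08). Fabp5, of the same family, had 695, 704 and 719.6 in the NSP libraries and 403, 371 and 364 at 72 h, a change of -0.90 (adjusted p = 5.94e-08). Among other transcription factors that the study names, 1 of 10 start peaks was higher, Arid3a at 0.69 (adjusted p = 0.00449) with NSP replicate 1 inside the range of 72 h, and 5 were lower, led by Myc at -0.96 (adjusted p = 5.65e-07) and Dlx1 and Foxp1 at -0.74 and -0.84. These counts too were near the shares of all start peaks. Lhx3 was at -0.29 (adjusted p = 0.121). Hoxd8, Tcf21 and Tcfl5 had no start peak.

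Markers of cell types from outside the neural lineage were mostly without a start peak. Their counts stand beside 56.6% lower and 7.59% higher among all start peaks, or 35% and 15.3% with total reads scaling. Of 10 microglial genes 4 had a start peak, none called, with summed levels of 899 to 915 normalised reads in NSPs and 807 to 901 at 72 h, and Cx3cr1, Csf1r and Aif1 had no start peak. Of 9 endothelial genes 4 had one, with sums of 571 to 647 and 300.2 to 333, and 3 were lower (2 with total reads scaling, which left out Kdr at an adjusted p of 0.134), Erg by -1.68 (adjusted p = 1.88e-06) the most, while Cldn5 and Pecam1 had no start peak. Of 12 mural and fibroblast genes 3 had one, with sums of 627 to 823 and 474 to 552, 2 lower and 0 higher, and Pdgfrb, Col1a2 and Dcn had none. The Col1a1 peak, 1 of the 2 lower, lay 659 bases from the higher-coordinate end of the gene. That end was taken because no start was listed, and it may not be the promoter. The peak changed by -0.42 (adjusted p = 0.0247) and was not called by edgeR (adjusted p = 0.0637), with total reads scaling (adjusted p = 0.432) or without any 1 of 72 h replicates 2 and 3 and NSP replicate 1 (adjusted p from 0.0729 to 0.118). The gains at Acta2, Lmod1 and Tagln stood beside these levels, and their part was not tested.

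**Figure D5:**
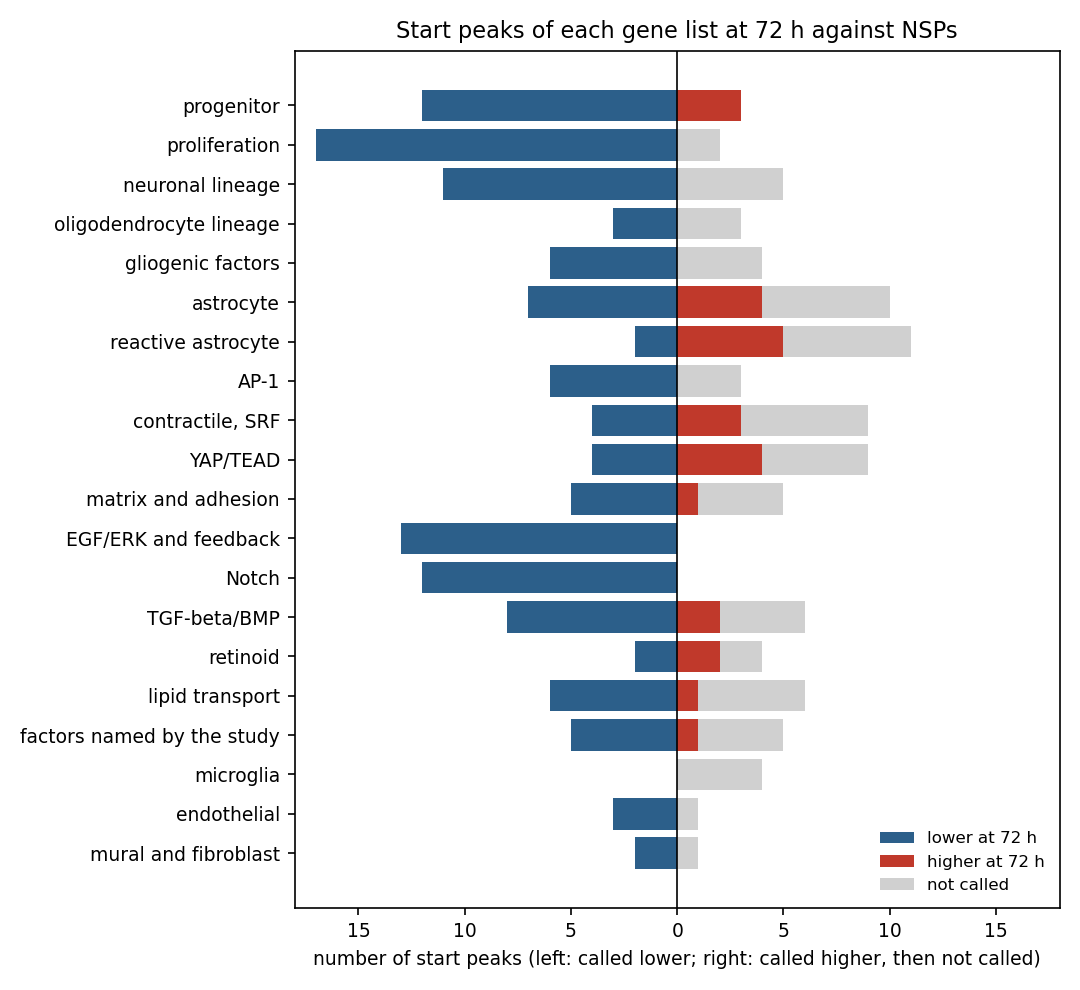
Number of start peaks of each gene list (x axis) that were called lower at 72 h than in NSPs (blue, to the left), called higher (red, to the right) or not called (grey, after the red). All start peaks of the Notch and the EGF and ERK lists are lower, 12 and 13, and the reactive astrocyte list, with 5 higher and 2 lower, is the only list of the 20 with more higher than lower.

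Most of the changes named by size or by p lay away from starts. Of the 5 peaks with the smallest p among those higher, 1 was on a patch scaffold and followed the tag, with under 1 normalised read in each NSP library and 1095 to 1350 at 72 h. The next, inside Gdpd5, a phosphodiesterase family gene, at chr7:99403430-99403930, had 12.3, 12.7 and 9.97 in the NSP libraries and 463, 416 and 540.4 at 72 h, a change of 5.23 ± 0.14 (SE, adjusted p = 9.40e-22). A peak 33.2 kb from Ddx10, an RNA helicase gene, had 8.76, 6.59 and 11.3 in the NSP libraries and 462, 431 and 463 at 72 h, a change of 5.54 ± 0.15 (SE, adjusted p = 2.63e-21). The peak nearest to Celf4, which is 2174 kb away, and one 15.1 kb from Pkd2l2 changed by 5.60 and 7.26, and the latter, with 2.34, 1.88 and 4.65 in the NSP libraries and 596, 549 and 595 at 72 h, had the largest change, after the one on the scaffold, of the peaks that averaged at least 100 normalised reads over the 6 libraries. Regions of like size of change had few reads in NSPs. The peak inside R3hcc1 changed by 6.83 ± 0.31 (SE, adjusted p = 5.73e-17), the one 63.8 kb from P3h2, of a collagen-modifying enzyme, by 6.69 ± 0.25 (SE, adjusted p = 6.36e-19) and the one inside Dner, a Notch ligand-like gene of neurons, by 6.66 ± 0.43 (SE, adjusted p = 9.70e-14). At Dner the NSP values were 23.9, 2.83 and 1.33, with replicate 1 above the others, and those of 72 h 669, 526 and 646.

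The losses are described for the peaks within the read limit, which leaves out losses as large as a log2 change of -7.93. The peak with the smallest p lay inside Xylt1, a gene of proteoglycan synthesis, at chr7:117462471-117462971. It had 2323, 2335 and 2773 in the NSP libraries and 206, 242 and 256 at 72 h, a change of -3.40 ± 0.14 (SE, adjusted p = 6.11e-18). Peaks 145 kb from Kiz, 17.5 kb from Traf3ip2 and inside Adarb2, a neural RNA-editing family gene, changed by -2.95, -2.72 and -2.85, and the start peak of Hes5 completed the first 5. The largest losses by size among these were of peaks 191 kb from Nup35, with 732, 856 and 949 in the NSP libraries and 25.7, 46.6 and 39.5 at 72 h, a change of -4.50 ± 0.26 (SE, adjusted p = 1.54e-14), and inside Reep3, with 708, 568 and 692 in the NSP libraries and 25.7, 27.5 and 33.1 at 72 h, a change of -4.46 ± 0.32 (SE, adjusted p = 9.57e-13). Those near Chd7 and Arhgap12 and inside Baz2b changed by -4.26, -4.22 and -4.13.

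Some genes held many changed peaks, several of them mostly of 1 direction. Of all peaks 28.4% were higher and 30.8% lower. Shroom3, an actin-binding protein gene of apical constriction, had 30 higher and 2 lower of 39 assigned peaks, and Smad6 had 26 and 0 of 29. Rad51b had 29 higher and 10 lower of 49, Rora 26 and 9 of 54, Sema6d 26 and 13 of 54 and Zfat 25 and 10 of 46. Myc had 24 higher and 18 lower of 64 and Nav2 24 and 22 of 75. On the other side, Xylt1 had 29 lower and 7 higher of 54, Gse1 28 lower and 8 higher of 60 and Nrxn3, a synaptic adhesion gene, 27 lower and 8 higher of 56. Auts2 had 28 lower and 14 higher of 71, Bcor 24 and 8 of 50 and Rbfox1, a neuronal splicing factor gene, 24 and 12 of 55. Zfp608 had 29 lower and 15 higher of 72. Long genes and genes in wide gaps hold more peaks, which sets how far such counts can go.

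The change was then placed between the earlier and the later stage. Against 24 h, 10688 peaks (12.1%) were higher at 72 h and 12527 (14.1%) lower, fewer than against NSPs, and with total reads scaling 13867 and 10275, a share of higher calls of 57.4% in place of 46.0%. The tag also differs between 24 h and 72 h. At starts 975 (7.26%) were higher and 3133 (23.3%) lower. Hes5 fell further, from 827, 816 and 590.0 at 24 h, a change of -1.90 ± 0.16 (SE, adjusted p = 5.37e-10), and 8 of the 12 Notch starts were lower than at 24 h. Olig2 and Skil also fell on, by -0.83 (adjusted p = 5.13e-06) and -1.20 (adjusted p = 1.88e-06). Mki67 was at -0.24 (adjusted p = 0.149) and Ccnd1 at -0.39 (adjusted p = 0.0918), with 24 h levels of 142, 168 and 152. The start of Gfap stood at 511, 500.1 and 456 at 24 h, and its further change of 0.11 (adjusted p = 0.742) did not pass the test, nor did that of Acta2 at -0.03 (adjusted p = 0.922). C3, Lmod1, Ccn2, Gja1 and Gpld1 were higher than at 24 h, by 2.17 (adjusted p = 5.44e-05), 1.14 (adjusted p = 1.07e-05), 0.99 (adjusted p = 6.73e-05), 0.92 (adjusted p = 0.00123) and 0.84 (adjusted p = 6.16e-05).

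From 72 h to 1 week (4 libraries), both of which carry the tag, 20035 peaks (22.6%) were higher at 1 week and 14383 (16.2%) lower. At starts 7705 (57.3%) were higher and 700 (5.21%) lower, and the share of reads in peaks that fell at starts was 41.2% to 41.8% at 1 week against 35.5% to 37.6% at 72 h. This balance rested on the scaling. Total reads gave 7965 higher and 30033 lower, where the deposited scaling had 58.2% of calls higher, edgeR with TMM scaling gave 47.2%, and loess offsets lowered the median change at starts from 0.41 to 0.06. Hes5 fell again, to 86.4, 74, 90.2 and 121, a change of -1.10 ± 0.15 (SE, adjusted p = 2.78e-06), although starts in general were higher. Gfap fell to 248, 249, 255 and 279.9, a change of -1.03 ± 0.21 (SE, adjusted p = 2.64e-04), and S100b by -0.66 (adjusted p = 4.18e-04). Lmod1, Tead4 and Tagln rose further, by 0.79 (adjusted p = 2.19e-04), 0.97 (adjusted p = 1.07e-06) and 1.47 (adjusted p = 0.00152), and 12 of 13 contractile starts were higher than at 72 h. Ccnb1 and Skil, lower at 72 h, were higher again at 1 week by 0.67 (adjusted p = 7.22e-06) and 1.10 (adjusted p = 1.85e-06). Of the peaks away from starts, those in Gdpd5 and near Ddx10 rose further, the former with adjusted p = 1.63e-06 and the latter by 1.13 (adjusted p = 1.22e-06), and that in Xylt1 was at -0.06 (adjusted p = 0.738).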

How the data were processed

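ATAC-seq was done by the authors on bulk cells that were not sorted, with 19 libraries in 6 groups. Per the labels and the study's methods, paired-end reads were trimmed with Trim Galore, aligned with Bowtie2 to mm10, freed of mitochondrial reads with SAMtools, and peaks were called with MACS2 and cleared of blacklisted regions. The handling of duplicates, the read shift and tool versions are not given in the sources used here. The authors deposited 1 table with the signal of each library in 90154 peaks, nearly all 500 bases long. In every column all values were whole multiples of 1 constant (tolerance 0.001), that is, reads divided by a size factor, and reads were recovered from it. Because these are normalised values, log2(value + 1) was tested, with limma 3.58.1 (trend, group means of all 19 libraries) in R 4.3.3, after edgeR's filterByExpr with a minimum count of 10. Benjamini-Hochberg adjustment ran over all peaks tested, and a peak was called at an adjusted p under 0.05. Log2 changes are differences on that scale, which understates the change of low peaks. Depth in reads is given with the results, and deeper NSP libraries carry less counting error.

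Gene names, starts and promoters are from RefSeq tables of GRCm38.p6. A start was listed for 17491 of 21896 protein-coding genes, and for the others either end of the gene was taken as one. With starts so defined, 13323 genes had a peak within 1 kb. A peak was assigned to the protein-coding genes whose body held its centre, otherwise to the nearest one. Named were, per gene list, up to 3 start peaks called higher and 3 called lower by smallest p, over all peaks the 5 of each direction by smallest p and the 5 by largest change at a mean of at least 100, both without overlap, the 8 genes per direction with the most called peaks, and start peaks of genes that the study names for this stage. Other genes are named as examples, chosen after their values were seen, and 1 gene that the rule names is not reported here. The comparison, the 20 gene lists and these rules were chosen with earlier results of these data known. The fit was tested on simulated data. Alternatives were edgeR 4.0.16 and DESeq2 1.42.0 on the recovered reads, total reads scaling, loess offsets, other filters and pseudocounts, and fits that left out libraries.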

Additional observations from a re-analysis of the deposited data

Results flagged for a closer look

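Among the peaks named, 96 sets of 4 values from the 1 week group were tested for a library far from the other 3, and 3 were marked, where chance marks about 1 in 20. At the start of C3 1 week replicate 4 had 19.3 normalised reads and the others 28.2 to 28.8. At the start of Srebf1 replicate 3 had 304 and the others 357 to 366. At the start of Srf replicate 4 had 1437 and the others 1332 to 1340. The groups of 3 libraries, NSPs and 72 h among them, were too small for this test.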

How the results depend on the processing

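Of 94 named changes between 72 h and NSPs, 80 kept their direction and their side of the threshold under every alternative run. The exception in direction was Rxrb, at 0.0013 with loess offsets (adjusted p = 0.992). Asking for a log2 change of at least 1 left 16901 higher and 12850 lower peaks against NSPs, which turned the balance to higher, 3086 higher and 4043 lower against 24 h, and 3499 higher and 6323 lower at 1 week. From 72 h to 1 week total reads scaling gave 7965 higher and 30033 lower, and loess offsets 11659 higher. Leaving out 1 library at a time gave 23028 to 25726 higher and 24279 to 27957 lower peaks against NSPs, 7404 to 9128 and 9349 to 11103 against 24 h, and 16805 to 18702 and 10729 to 14049 at 1 week. With the scaffolds and the stretches around peaks that follow the library tag also left out, an alternative chosen after seeing the data, 25074 were higher and 27241 lower, and without peaks low in all untagged libraries 25181 and 27283.

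Replicate numbers are shared between groups, but same-numbered libraries of NSPs and 72 h did not deviate together (correlations from 0.011 to 0.017, each number highest with its own). With the number as a replicate block 25057 peaks were higher and 27150 lower against NSPs, 10256 and 12330 against 24 h, and 18403 and 12927 at 1 week. Limits remain in the scaling, which sets the balance of gains and losses, in depth, which was lower in every 72 h library, and in the library tag, which cannot be told apart from the stage against NSPs and 24 h. Small differences at peaks with few reads were not detectable at this depth.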

Other observations

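Peaks on the X chromosome differed in balance from those on the autosomes between 72 h and NSPs. Of 2081 tested X peaks 38.1% were lower and 23.6% higher, with a median log2 change of -0.26. On the autosomes 26.7% to 33.4% were lower and 26.5% to 32.3% higher. The labels give no sex for the embryos, and its part was not tested. Without the sex chromosomes 24691 peaks were higher and 26480 lower.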
